A study of Mus musculus with 4 samples.

Results

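Il1a, Il1b, Il1rn, Il1r2, Il1f9, Tnf, Nfkbia, Nfkbiz and Tnfaip3 are genes of interleukin-1 and TNF signalling and of the feedback that NF-kB exerts on itself. These 9 genes of the 31053 in the matrices were described across 16 classes of tumour leukocytes gated on marker UMIs (unique molecular identifiers, each counting 1 captured transcript). They were selected on levels measured in these same libraries, with earlier results known, so their levels and differences are given as a description. C57BL/6 male mice labelled ATPIF1 knock-out (KO) or wild-type (WT) carried B16 melanoma, a transplantable mouse melanoma line, in the right flank until day 12. The labels give 6 mice without saying whether per genotype, and no allele or deleted exon; the implanted tumour cells were not described as knock-outs. Tumours of each genotype were pooled, leukocytes were sorted on CD45, and 1 library per genotype was made with 10x 5′ chemistry. No p-value is given, because 1 pooled library per genotype has no replicate. All intervals are 95% intervals, cover counting error only, and do not cover differences between mice, sorts or libraries.

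The matrices held 24385843 UMIs in the library labelled KO and 35152477 in that labelled WT. With at least 1000 UMIs, at least 500 genes and at most 10% mitochondrial UMIs, 3211 KO-labelled and 4370 WT-labelled cells remained, at a median of 4266 and 4314.5 UMIs, and 59.7% and 64.8% of them fell into the 16 classes. The 35 markers held out of the gates of the 12 compared classes were each above the median of the other classes in both libraries. Only 24 of them in the KO-labelled and 23 in the WT-labelled library were highest in their own class. Trem2, a marker of C1q-high macrophages, was highest in Ccl8 Cbr2 macrophages in both libraries. Among the classes not compared, the NK marker Gzma had 0 CPM in the 8 WT-labelled NK cells. Neutrophils differed most in number, with 9 KO-labelled and 425 WT-labelled cells, and 12 classes with at least 30 cells in each library were compared. The neutrophils had median depths of 1387 and 1817 UMIs, near the limit of 1000 UMIs, and neutrophils below that limit were not counted. The libraries shared 29 cell barcodes, 2 of them in the same class. Atpif1, the targeted gene, an inhibitor of the mitochondrial ATP synthase, stood at 679 CPM in KO-labelled and 576 CPM in WT-labelled cells, where CPM is counts per 1000000 UMIs of the class or library. The expression of the targeted gene thus goes against the label, with no exon known at which the 5′ reads would show a deletion, and every direction given here is between the libraries labelled KO and WT.

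Interleukin-1 alpha and beta (Il1a, Il1b) bind the same signalling receptor. The receptor antagonist (Il1rn) occupies that receptor without signalling, and the decoy receptor (Il1r2) captures the ligands. Il1f9 encodes interleukin-36 gamma, a relative that acts on its own receptor, and Tnf encodes tumour necrosis factor. Their receptors activate NF-kB, a transcription factor held in the cytoplasm by IkB alpha (Nfkbia). NF-kB induces Nfkbia, which restrains it again, Tnfaip3, whose product A20 edits ubiquitin chains of the signalling complexes, and Nfkbiz, a nuclear IkB protein that promotes some secondary targets. Myeloid cells are the main producers of IL-1 beta in tumours, and in macrophages Il1b and Tnf are inducible by microbial products.

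All 9 are annotated as protein-coding in RefSeq on GRCm38.p6, the assembly that the mm10 build of the matrices names. Il1a (chr2:129299609-129310186) and Il1b (chr2:129364569-129371164) are neighbours on chromosome 2. Il1rn (chr2:24336860-24351491) and Il1f9 (chr2:24186476-24193567) lie in a second cluster there. Il1r2 is at chr1:40084692-40125230, Tnf at chr17:35199367-35202007, Nfkbia at chr12:55489409-55492647, Nfkbiz at chr16:55811375-55838954 and Tnfaip3 at chr10:19000910-19015410. RefSeq promoters were found for 8 of the 9 members, and Nfkbiz was without an entry. The 250 bases before the annotated start are shown for 3 members that were lower together in the KO-labelled macrophages (Nfkbia, Tnfaip3 and Tnf) and for Il1b, which was higher in most of them. All 4 are on the minus strand, at chr12:55492648-55492897, chr10:19015411-19015660, chr17:35202008-35202257 and chr2:129371140-129371389, and are written 5′ to 3′ on the gene strand with matches in capitals.
Nfkbia: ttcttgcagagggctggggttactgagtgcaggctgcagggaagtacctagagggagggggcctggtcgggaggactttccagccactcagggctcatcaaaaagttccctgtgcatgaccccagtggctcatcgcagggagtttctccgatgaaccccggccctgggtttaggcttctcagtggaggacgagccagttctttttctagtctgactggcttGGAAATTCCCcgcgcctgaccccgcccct
Tnfaip3: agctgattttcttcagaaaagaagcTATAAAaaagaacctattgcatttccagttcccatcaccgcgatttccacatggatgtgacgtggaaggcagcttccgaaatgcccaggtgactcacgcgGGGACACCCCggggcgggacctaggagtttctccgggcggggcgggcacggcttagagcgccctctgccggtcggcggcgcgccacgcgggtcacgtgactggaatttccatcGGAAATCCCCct
Tnf: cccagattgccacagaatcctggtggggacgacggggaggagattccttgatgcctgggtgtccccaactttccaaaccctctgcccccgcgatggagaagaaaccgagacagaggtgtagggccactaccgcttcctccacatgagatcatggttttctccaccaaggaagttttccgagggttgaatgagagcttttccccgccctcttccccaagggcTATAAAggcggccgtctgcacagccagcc
Il1b: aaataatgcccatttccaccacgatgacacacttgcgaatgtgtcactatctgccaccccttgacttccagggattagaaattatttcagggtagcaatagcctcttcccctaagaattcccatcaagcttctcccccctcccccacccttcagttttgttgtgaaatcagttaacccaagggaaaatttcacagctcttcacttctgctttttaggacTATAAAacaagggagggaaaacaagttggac
Capitals mark the degenerate kappaB consensus, the binding motif of NF-kB, searched on both strands and TATAAA on the gene strand. Nfkbia held 1 consensus match 29 bases before the start and Tnfaip3 held 2, at 125 and 12 bases, whereas 3.90% of 32851 promoter windows of this length held any. The Tnfaip3 window shown is that of the first of its 2 annotated starts. The window of the second start held neither motif. TATAAA was in 7.59% of windows and stood 29 and 31 bases before the starts of Tnf and Il1b, and 225 bases before that of Tnfaip3. No kappaB match was in the Tnf or Il1b window, nor in any window of Il1a, Il1rn, Il1r2 or Il1f9, which says only that these letters do not occur there.

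Most members were highest in WT-labelled neutrophils, the short-lived granulocytes that are recruited first to inflammation. In the library labelled WT, 8 of the 9 were highest in neutrophils among the classes of at least 30 cells, while 11.3% of all genes at 50 CPM or more were highest there. Because the list was drawn up with these data in view, nothing is read from that count. The WT-labelled neutrophil interval overlapped that of Arg1 Mmp12 macrophages for Il1a and that of gamma-delta T cells for Tnfaip3. Il1b reached 11187 CPM (interval 9490 to 13100) in the 9 KO-labelled and 12115 CPM (11894 to 12338) in the 425 WT-labelled neutrophils, levels whose intervals overlap. Nfkbia had 5957 CPM in KO-labelled neutrophils, from 82 UMIs, and 7612 CPM (7437 to 7789) in WT-labelled ones, so the KO-labelled value lay below that interval. Il1rn had 1017 CPM in KO-labelled neutrophils, from 14 UMIs, and 1582 CPM in WT-labelled ones. Il1r2 had 944 CPM in KO-labelled neutrophils, from 13 UMIs, and 1000 CPM in WT-labelled ones, too few KO-labelled UMIs to call the levels alike. Among gated cells Il1f9 lay mostly in this class: WT-labelled neutrophils held 843 of the 891 UMIs in gated cells, and no other gated class exceeded 14 CPM. All WT-labelled cells, gated or not, held 1094 Il1f9 UMIs, and all KO-labelled cells 13. The KO-labelled neutrophils held 2 Il1f9 UMIs (145 CPM, interval 17.6 to 525), against 887 CPM (828 to 949) in WT-labelled ones. In no other KO-labelled class was an Il1f9 UMI found. Neutrophils contributed 1.39% of the gated Il1b UMIs in the library labelled KO and 50.8% in that labelled WT, so a sum over all leukocytes mixes cell number with level per cell. Among gated KO-labelled cells the largest contributors of Il1b UMIs were C1q-high macrophages (25.4%), cDC2 (21.4%) and Ly6c2 monocytes (16.5%). Gated KO-labelled cells held 11045 Il1b UMIs, and all KO-labelled cells, gated or not, 16312.

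**Figure D1:**
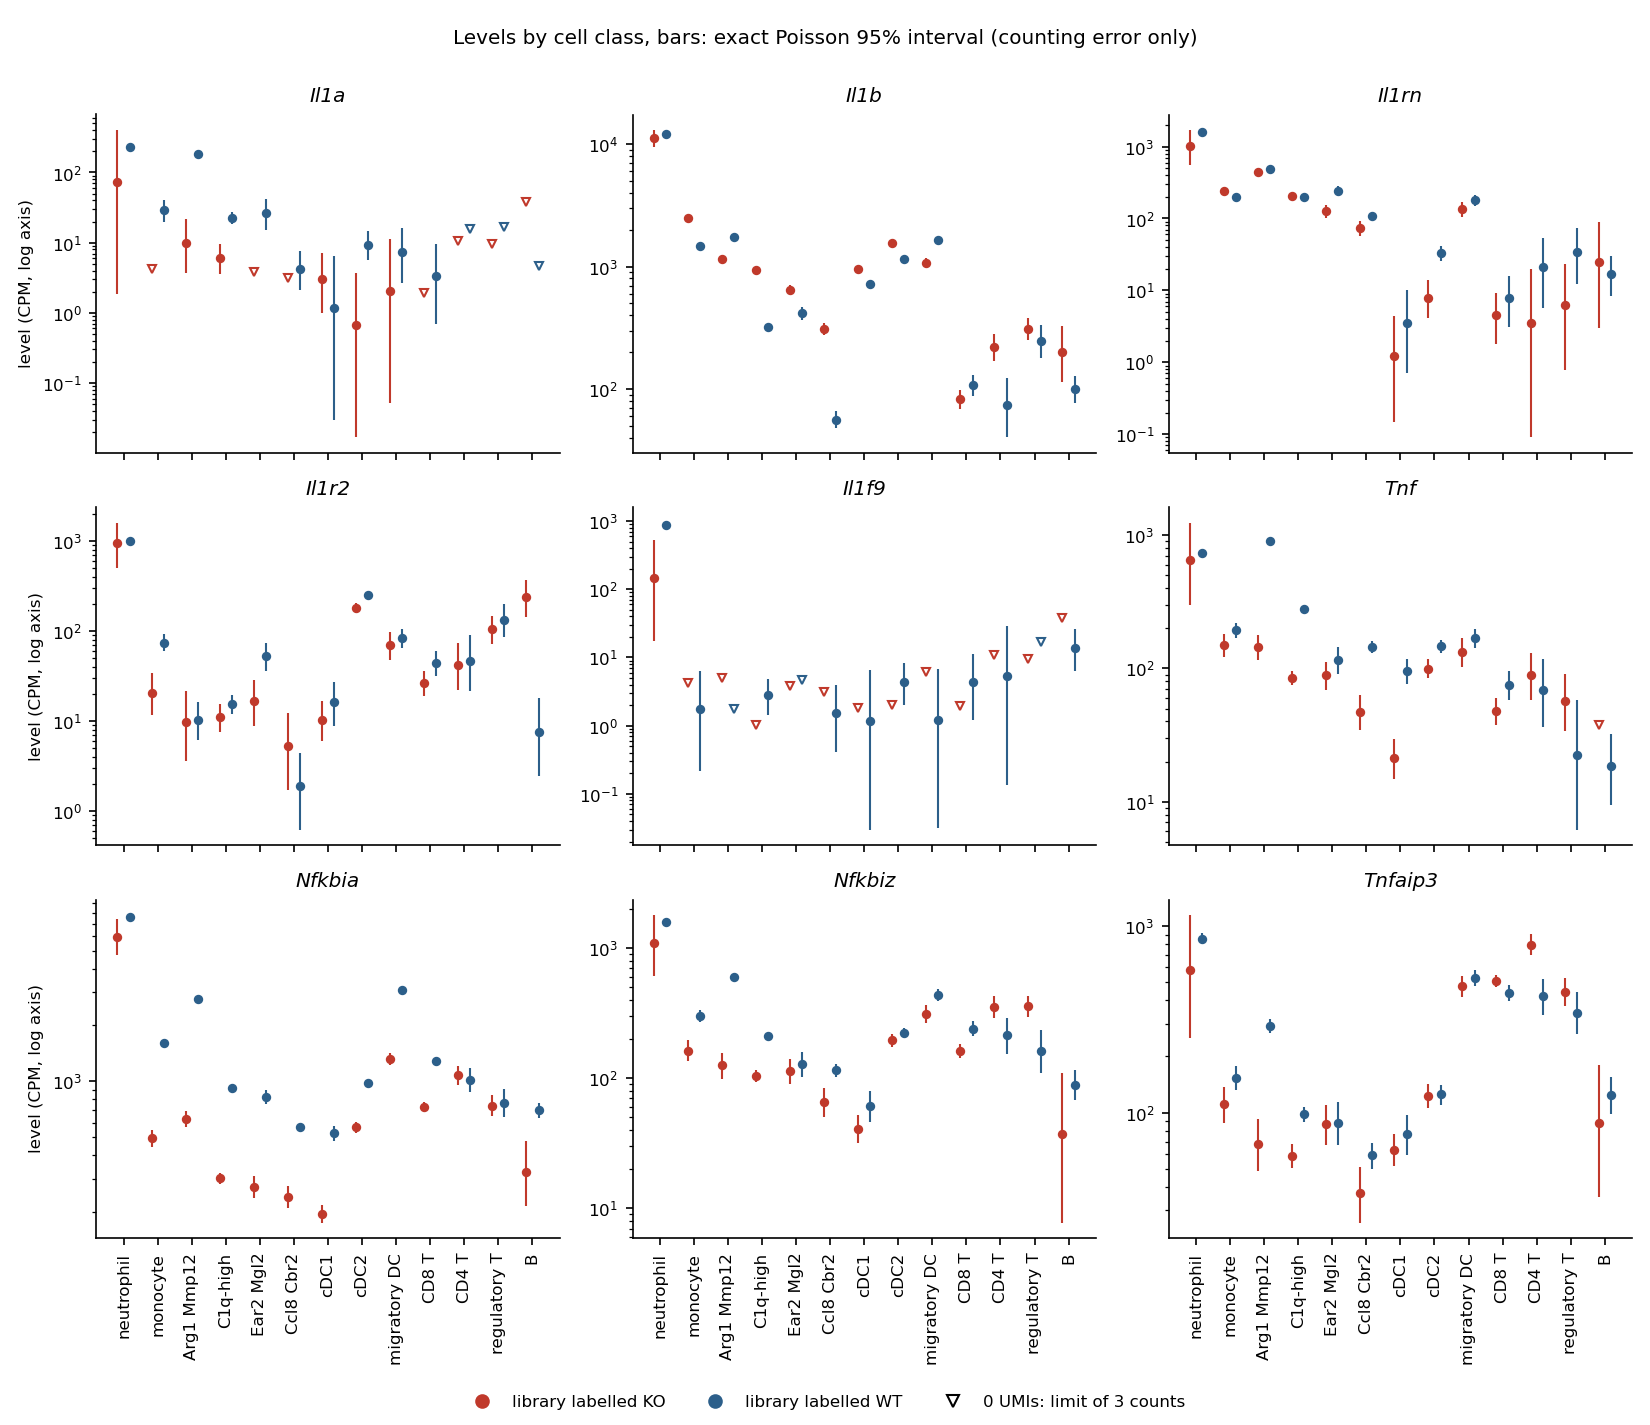
Levels of the 9 members in 13 classes on log axes, with the library labelled KO left of that labelled WT in each pair. Points are CPM and bars exact Poisson intervals, open triangles mark the limit of 3 counts where no UMI was found, and the KO-labelled neutrophils are 9 cells. Nfkbia was lower in all 5 KO-labelled monocyte and macrophage classes, and Il1b was higher in 4 of them.

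Nfkbia was at least 1.5-fold lower in all 5 KO-labelled monocyte and macrophage classes, Nfkbiz in 4 of them and Tnfaip3 in 3. Nfkbia, the gene of IkB alpha, had 495 CPM in KO-labelled and 1606 CPM in WT-labelled Ly6c2 monocytes, a log2 ratio of -1.70 (interval -1.86 to -1.53). It had 628 CPM in KO-labelled and 2780 CPM in WT-labelled Arg1 Mmp12 macrophages (log2 ratio -2.15, -2.30 to -1.99). These macrophages express arginase and a macrophage elastase. In macrophages rich in complement C1q it had 302 and 924 CPM in the KO-labelled and WT-labelled library (-1.61, -1.72 to -1.51). Nfkbia was also lower in KO-labelled Ear2 Mgl2 macrophages (271 against 826 CPM in WT-labelled ones) and Ccl8 Cbr2 macrophages (240 against 571 CPM in WT-labelled ones). None of these 5 pairs of intervals overlapped, and the log2 ratios spanned -2.15 to -1.25. After thinning every cell to 1000 UMIs, 22.7% of KO-labelled C1q-high macrophages (18.8 to 26.9%) and 44.6% of WT-labelled ones (40.0 to 49.3%) still held an Nfkbia UMI, against 51.6% and 77.8% before thinning. No gated class lacks Nfkbia, so no background share can be set beside these, and empty droplets held 458 CPM of Nfkbia in the KO-labelled and 1308 CPM in the WT-labelled library. The part of free RNA in these shares was not tested.

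Nfkbiz and Tnfaip3 followed Nfkbia most closely in Arg1 Mmp12 macrophages. Nfkbiz had 126 CPM in KO-labelled and 600 CPM in WT-labelled cells of that class (log2 ratio -2.25, interval -2.61 to -1.91). Tnfaip3 had 68.0 and 293 CPM in KO-labelled and WT-labelled cells (-2.11, -2.60 to -1.65). In C1q-high macrophages both differences were smaller, with log2 ratios of -1.01 for Nfkbiz (104 CPM in KO-labelled and 211 CPM in WT-labelled cells) and -0.74 for Tnfaip3 (58.7 and 98.0 CPM). In monocytes Tnfaip3 had 111 CPM in KO-labelled and 154 CPM in WT-labelled cells (-0.47, -0.87 to -0.08), short of 1.5-fold. In the Ear2 Mgl2 class neither gene differed beyond counting error at the main setting: Nfkbiz had a log2 ratio of -0.18 (-0.63 to 0.27) and Tnfaip3 of -0.03 (-0.56 to 0.51). Over the other settings Nfkbiz ran from -1.01 to -0.005 there and Tnfaip3 from -0.37 to 0.45. Across 27 profiles (class and library, at least 30 cells) Nfkbia and Nfkbiz had the highest correlation among the members, with r = 0.90 on log2(CPM + 10), a description that shares libraries and depth between points.

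Tnf was at least 1.5-fold lower in 3 of the 4 KO-labelled macrophage classes, and short of that in Ear2 Mgl2 macrophages and in monocytes. Arg1 Mmp12 macrophages held 144 CPM in the KO-labelled and 909 CPM in the WT-labelled library (log2 ratio -2.66, interval -2.98 to -2.34). The WT-labelled level was the highest of any class there. C1q-high macrophages held 84.6 and 280 CPM of Tnf in the KO-labelled and WT-labelled library (-1.73, -1.93 to -1.53), and Ccl8 Cbr2 macrophages 47.4 and 144 CPM (-1.61, -2.09 to -1.16). In Ear2 Mgl2 macrophages the interval included 0 (88.95 CPM in KO-labelled and 116 CPM in WT-labelled cells, -0.88 to 0.11), and in monocytes the log2 ratio was -0.37 (-0.72 to -0.03), with 149 and 193 CPM, and ran from -0.83 to 0.30 over the other settings. The order of classes differed between the libraries: monocytes and Arg1 Mmp12 macrophages had overlapping Tnf intervals when KO-labelled (123 to 180 and 116 to 178 CPM), but lay far apart when WT-labelled (169 to 221 and 864 to 955 CPM).

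Il1a had the lowest log2 ratio of the measured members in Ly6c2 monocytes, Arg1 Mmp12 macrophages, C1q-high macrophages and cDC2. KO-labelled Arg1 Mmp12 macrophages held 6 Il1a UMIs (9.95 CPM), against 320 UMIs (185 CPM) in WT-labelled ones, a log2 ratio of -4.22 (interval -5.67 to -3.08). In C1q-high macrophages it had 6.07 CPM in the KO-labelled and 22.5 CPM in the WT-labelled library (-1.89, -2.70 to -1.15). No Il1a UMI was found in KO-labelled monocytes, which allows up to 4.15 CPM, whereas WT-labelled monocytes held 33 UMIs (29.0 CPM). With the empty group set to 3 counts, Il1a was at least 6.98-fold lower in KO-labelled monocytes.

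Il1b went the other way in 4 of the 5 monocyte and macrophage classes. Ly6c2 monocytes had 2514 CPM in the KO-labelled and 1483 CPM in the WT-labelled library (log2 ratio 0.76, interval 0.67 to 0.86). C1q-high macrophages had 947 and 319 CPM in KO-labelled and WT-labelled cells (1.57, 1.48 to 1.67). Ccl8 Cbr2 macrophages, which share markers with tissue-resident macrophages, had 309 and 56.4 CPM (2.45, 2.16 to 2.75), and Ear2 Mgl2 macrophages 647 and 417 CPM (0.63, 0.42 to 0.85). Arg1 Mmp12 macrophages were the exception, with 1152 CPM when KO-labelled and 1745 CPM when WT-labelled (-0.60, -0.72 to -0.48). The class sums of Il1b and Nfkbia therefore differed in opposite directions in 4 classes and in the same direction in Arg1 Mmp12 macrophages. After thinning, 40.0% of KO-labelled C1q-high macrophages (35.3 to 44.8%) and 19.0% of WT-labelled ones (15.5 to 22.8%) held an Il1b UMI, against 60.0% and 40.5% before thinning. B cells, which are not known as a source of much Il1b, gave 2.56% (0.0649 to 13.5%) KO-labelled and 5.04% (2.97 to 7.95%) WT-labelled, at median depths of 1470 and 1695 UMIs against 6192 and 8317.5 in C1q-high macrophages.

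Several measured features are set beside the Il1b difference. The gate markers Ly6c2, Plac8 and Hp were higher in all 4 KO-labelled macrophage classes, also in Arg1 Mmp12 macrophages, where Il1b was lower. At least 5 of their UMIs were held by 30.8% of KO-labelled and 14.2% of WT-labelled C1q-high macrophages. These shares were 30% and 6.02% in Ccl8 Cbr2, 22.5% and 9.09% in Ear2 Mgl2, and 29.4% and 5.98% in Arg1 Mmp12 macrophages. Without such cells the Il1b log2 ratio was 1.11 in C1q-high, 1.88 in Ccl8 Cbr2, 0.27 in Ear2 Mgl2 and -0.86 in Arg1 Mmp12 macrophages, so every direction stayed, while the higher level in C1q-high macrophages shrank to a ratio still past 1.5-fold and that in Ear2 Mgl2 macrophages no longer reached it. In the same cells the Nfkbia log2 ratio was -1.72 in C1q-high, -1.72 in Ccl8 Cbr2, -1.92 in Ear2 Mgl2 and -2.16 in Arg1 Mmp12 macrophages. S100a9, a neutrophil transcript, had 422 CPM in KO-labelled and 2898 CPM in WT-labelled empty droplets, and S100a8 and S100a9 together had 12.8 CPM in KO-labelled and 76.0 CPM in WT-labelled C1q-high macrophages. At the neutrophils' ratio of Il1b to these transcripts, which in the KO-labelled library rests on 9 cells, this corresponds to 1.20 CPM of Il1b in KO-labelled and 14.7 CPM in WT-labelled C1q-high macrophages. The same calculation for Nfkbia gave 0.640 and 9.21 CPM. Estimates of the share of free RNA in C1q-high macrophages depended on the transcripts used: melanocyte transcripts gave 5.44% in the KO-labelled and 2.14% in the WT-labelled library, and haemoglobin gave 94.9% and 0.870%. In KO-labelled Ccl8 Cbr2 macrophages haemoglobin gave 155%, which is not possible as a share. The part of free RNA in the differences was not tested.

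**Figure D2:**
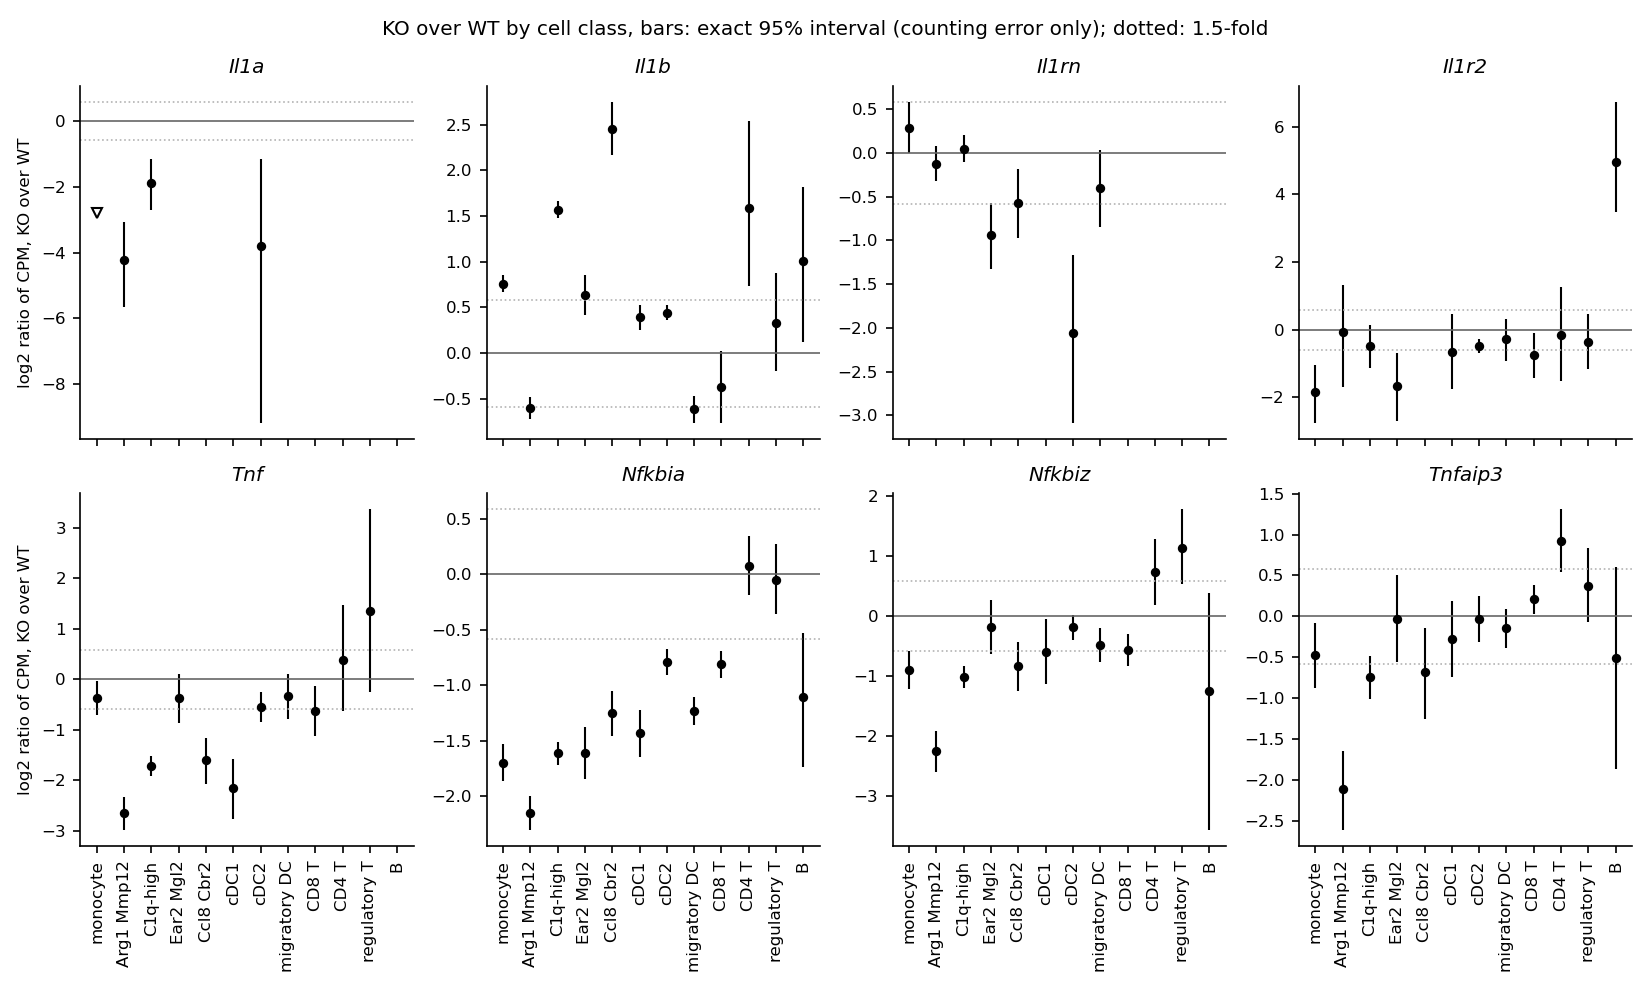
Log2 ratio of CPM, library labelled KO over that labelled WT, in 12 classes for the 8 members other than Il1f9, with exact intervals for counting error and dotted lines at 1.5-fold. Only pairs with at least 20 UMIs over both libraries are drawn, and the open triangle is a bound. Nfkbia lay below the lower dotted line in every monocyte, macrophage and dendritic class and near 0 in CD4 and regulatory T cells, while Il1b lay above the upper line in 4 of 5 monocyte and macrophage classes.

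The receptor antagonist was close between the libraries in C1q-high and Arg1 Mmp12 macrophages. Il1rn had 207 CPM in KO-labelled and 200 CPM in WT-labelled C1q-high macrophages (log2 ratio 0.05, interval -0.10 to 0.20), 443 and 481 CPM in Arg1 Mmp12 macrophages (-0.12, -0.33 to 0.08) and 239 and 196 CPM in monocytes (0.29, -0.01 to 0.58). The monocyte value ran from 0.20 to 1.08 over the other settings, with both gate changes past 1.5-fold. Il1rn was lower in KO-labelled Ear2 Mgl2 macrophages, with 126 CPM against 243 CPM in WT-labelled ones (-0.94, -1.32 to -0.57). In Ccl8 Cbr2 macrophages Il1rn was also lower, though short of 1.5-fold, with 73.7 CPM (57.5 to 93.2) KO-labelled and 109 CPM (97.0 to 123) WT-labelled. The number of Il1b UMIs for each Il1rn UMI was 4.57 (4.19 to 5.00) in KO-labelled and 1.59 (1.46 to 1.74) in WT-labelled C1q-high macrophages. In Ccl8 Cbr2 macrophages it was 4.19 (3.22 to 5.51) and 0.516 (0.420 to 0.631), so Il1rn outnumbered Il1b only in the WT-labelled library of that class. Arg1 Mmp12 macrophages had the reverse order, with 2.60 (2.26 to 3.01) KO-labelled and 3.62 (3.36 to 3.92) WT-labelled. Il1r2, the decoy receptor, was sparse in macrophages, and its apparent difference in monocytes (20.8 CPM KO-labelled, 74.7 CPM WT-labelled) rests on 1 WT-labelled cell that held 72.9% of its UMIs. It was best measured in cDC2, with 182 CPM KO-labelled and 252 CPM WT-labelled (log2 ratio -0.47, -0.69 to -0.26), and regulatory T cells held 105 and 135 CPM.

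**Figure D3:**
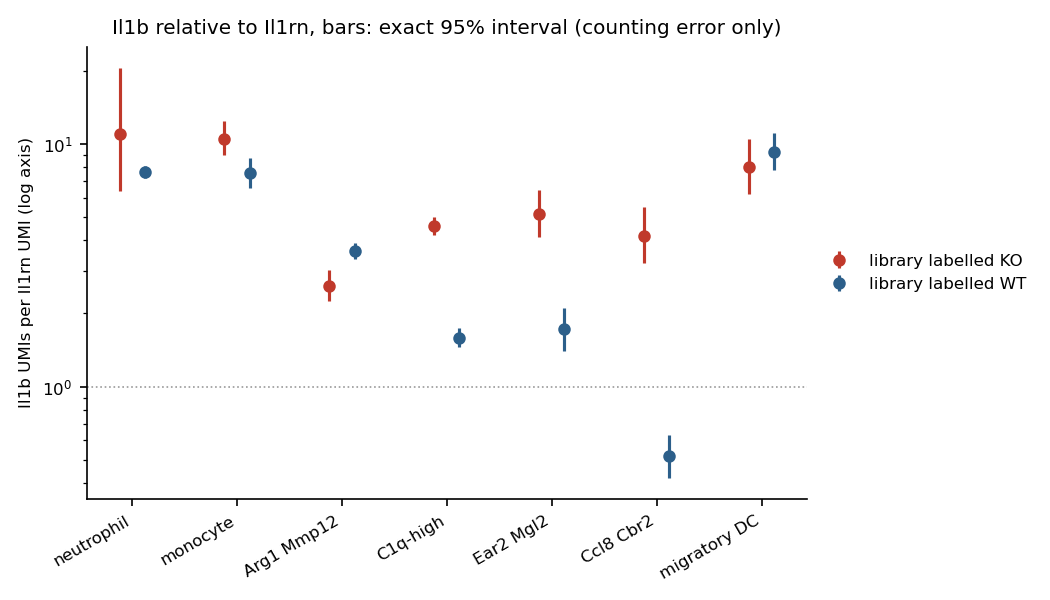
Il1b UMIs per Il1rn UMI in neutrophils, monocytes, the 4 macrophage classes and migratory dendritic cells, on a log axis, with exact intervals and the library labelled KO left of that labelled WT. The ratio was higher in KO-labelled C1q-high, Ear2 Mgl2 and Ccl8 Cbr2 macrophages and in KO-labelled monocytes (10.503 against 7.57 WT-labelled), and lower in KO-labelled Arg1 Mmp12 macrophages.

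Counts by class were read against all genes measured with at least 20 UMIs over both libraries. In Ly6c2 monocytes 1 of 8 measured members was at least 1.5-fold higher and 4 were lower in the library labelled KO, where 14.7% of all measured genes were higher and 10.9% lower. The 4 include Il1r2, whose difference rests on 1 WT-labelled cell. Arg1 Mmp12 macrophages had 0 higher and 6 lower of 8, beside 17.5% and 12.5% of all genes. C1q-high macrophages had 1 higher and 5 lower of 8, beside 7.87% and 7.11%. In Ear2 Mgl2 macrophages 1 member was higher and 3 were lower of 7 (all genes, 14.3% and 11.6%), and in Ccl8 Cbr2 macrophages 1 and 4 of 6 (9.80% and 13.9%). The median log2 ratio over measured members was -2.13 in Arg1 Mmp12 macrophages, where that of all genes was 0.11, and -0.88 in C1q-high macrophages, where it was 0.01. Since the list was made with these contrasts in view, the counts describe it and support nothing.

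Dendritic cells shared the lower Nfkbia but only part of the rest. Conventional type 1 dendritic cells (cDC1), which cross-present antigen, had 195 CPM of Nfkbia in the KO-labelled and 526 CPM in the WT-labelled library (log2 ratio -1.43, interval -1.64 to -1.22) and 21.3 and 95.4 CPM of Tnf (-2.16, -2.77 to -1.57). In cDC2, the conventional dendritic cells that chiefly prime CD4 T cells, Nfkbia had 567 and 983 CPM (-0.79, -0.91 to -0.68) while Nfkbiz and Tnfaip3 had intervals that included 0. Migratory dendritic cells, the mature state that expresses Ccr7, had 1317 CPM of Nfkbia when KO-labelled and 3094 CPM when WT-labelled (-1.23, -1.36 to -1.11), and Il1b was lower there too, at 1080 and 1650 CPM (-0.61, -0.76 to -0.47), beside Il1rn at 135 and 178 CPM (-0.40, -0.84 to 0.03). Of the measured members, 0 were higher and 4 lower of 6 in cDC1 (all genes, 11.3% and 7.95%), 0 and 3 of 8 in cDC2 (7.20% and 9.72%), and 0 and 2 of 7 in migratory dendritic cells (13.6% and 16.9%). The lower members of cDC1 include Il1r2, whose direction reversed with a looser gate. cDC2 also carried Il1b at 1561 CPM in the KO-labelled and 1148 CPM in the WT-labelled library, with almost no antagonist: Il1rn had 7.93 CPM and 33.1 CPM.

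Lymphocytes split by type. CD8 T cells had lower Nfkbia in the KO-labelled library (728 CPM against 1278 CPM WT-labelled, log2 ratio -0.81, interval -0.93 to -0.69), whereas CD4 T cells did not differ beyond counting error (1074 and 1019 CPM, 0.08, -0.19 to 0.34). Regulatory T cells had 740 and 766 CPM of Nfkbia in the KO-labelled and WT-labelled library (-0.05, -0.36 to 0.27). The 2 members Tnfaip3 and Nfkbiz were higher in KO-labelled CD4 T cells, where Tnfaip3 had 797 CPM against 420 CPM when WT-labelled (0.92, 0.55 to 1.31) and Nfkbiz 356 against 215 CPM (0.72, 0.19 to 1.29). Nfkbiz was also higher in KO-labelled regulatory T cells (359 against 163 CPM when WT-labelled, 1.14, 0.54 to 1.78). Of 11 other inhibitors and feedback genes measured in CD4 T cells, 1 was higher (Cyld) and 3 lower (Nfkbib, Ier3 and Socs3) by 1.5-fold. In CD4 T cells 6 of 13 immediate early and dissociation genes, among them Hspa1a (1373 CPM KO-labelled, 567 CPM WT-labelled), were at least 1.5-fold higher and 0 lower, and their part in these differences was not tested. Of measured members, 0 were higher and 3 lower of 6 in CD8 T cells (all genes, 27.1% and 7.38%), 3 and 0 of 6 in CD4 T cells (18.5% and 9.44%), 2 and 0 of 6 in regulatory T cells (12.7% and 14.4%), and 2 and 2 of 5 in B cells (19.1% and 23.1%). The lower members of CD8 T cells include Il1r2, whose direction reversed without the 5% of cells with most UMIs. The Il1b of CD4 T cells (221 CPM KO-labelled, 73.6 CPM WT-labelled) stood beside 217 and 147 CPM of S100a8 and S100a9, and 37.1% of its KO-labelled UMIs came from 1 cell. At the neutrophils' ratio of Il1b to S100a8 and S100a9, this corresponds to 20.4 CPM of Il1b KO-labelled and 28.4 CPM WT-labelled. The KO-labelled ratio rests on 9 neutrophils. The B-cell counts rest on few cells: all 19 KO-labelled Il1r2 UMIs and 81.2% of the 16 Il1b UMIs came from 1 of 39 cells.

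The other genes of the pathways were counted by role. Of all measured genes, 10.9% were at least 1.5-fold lower and 14.7% higher in KO-labelled monocytes. These shares were 12.5% and 17.5% in Arg1 Mmp12 macrophages and 7.11% and 7.87% in C1q-high macrophages. The receptors and signalling proteins of the IL-1 family (Myd88, Irak kinases and others) differed little in C1q-high macrophages, where 1 of 8 measured genes was higher (Il18bp, which binds interleukin-18, 16.2 CPM KO-labelled and 6.25 CPM WT-labelled) and 0 lower. Of the NF-kB subunits and kinases, 0 of 8 passed 1.5-fold in either direction in C1q-high macrophages. Rel was lower in KO-labelled Arg1 Mmp12 macrophages (68.0 CPM against 105 CPM WT-labelled, interval of the log2 ratio -1.16 to -0.13), while Ikbkg had 19.9 and 12.1 CPM there with an interval that included 0 (-0.44 to 1.80). In monocytes Rela, which encodes the subunit p65, was lower (41.5 CPM KO-labelled and 87.8 CPM WT-labelled, -1.72 to -0.48), and Relb had 27.7 and 46.6 CPM (-1.57 to 0.02). Relb was lower in KO-labelled cDC2 (35.7 against 65.7 CPM WT-labelled, -1.36 to -0.42). The TNF release and receptor list had 0 of 10 past 1.5-fold in C1q-high macrophages, 3 lower and 1 higher of 9 in monocytes and 2 lower of 9 in Arg1 Mmp12 macrophages. Traf1, an adaptor of TNF receptors, was lower in both, with 45.7 CPM KO-labelled and 82.6 CPM WT-labelled in monocytes and 33.2 and 77.9 CPM in Arg1 Mmp12 macrophages. Nlrp3, the inflammasome sensor that leads to cleavage of pro-IL-1 beta, was lower in KO-labelled Arg1 Mmp12 macrophages (92.8 against 230.3 CPM WT-labelled) and C1q-high macrophages (46.5 against 79.0 CPM). The protease Casp1 was higher in KO-labelled C1q-high macrophages (50.6 against 31.5 CPM WT-labelled). In Arg1 Mmp12 macrophages it had 26.5 and 17.3 CPM in the KO-labelled and WT-labelled library, with an interval that included 0 (-0.36 to 1.54).

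Other inhibitors and inflammatory targets differed by class. Of 13 other inhibitors and feedback genes, 7 were lower and 1 higher in KO-labelled monocytes, 7 and 0 in Arg1 Mmp12 macrophages, 3 and 1 in C1q-high, 3 and 2 in Ear2 Mgl2 and 0 and 0 in Ccl8 Cbr2 macrophages. Of all measured genes, 10.9% were lower and 14.7% higher in monocytes, and 12.5% and 17.5% in Arg1 Mmp12 macrophages. The shares were 7.11% and 7.87% in C1q-high, 11.6% and 14.3% in Ear2 Mgl2, and 13.9% and 9.8% in Ccl8 Cbr2 macrophages. Bcl3, an atypical nuclear IkB protein, had 65.0 CPM in KO-labelled and 211 CPM in WT-labelled monocytes (log2 ratio -1.70). Ier3, an early-response gene, had 1145 and 2417 CPM in KO-labelled and WT-labelled Arg1 Mmp12 macrophages (-1.08), and Socs3, an inhibitor of cytokine signalling, 164 and 409 CPM (-1.32). Among inflammatory targets the CXC chemokines that attract neutrophils were lower in all 5 classes, with Cxcl2 at 3983 CPM KO-labelled and 20054 CPM WT-labelled in Arg1 Mmp12 and at 1522 and 4944 CPM in C1q-high macrophages. Ptgs2, which makes prostaglandins, had 259 and 939 CPM in KO-labelled and WT-labelled Arg1 Mmp12 macrophages (-1.86). Ccl4, a chemokine, was at least 1.5-fold higher in KO-labelled Ear2 Mgl2 macrophages (835 against 325 CPM WT-labelled) and in KO-labelled monocytes. In KO-labelled Arg1 Mmp12 macrophages Ccl4 was at least 1.5-fold lower. Cd40, a costimulatory receptor, was at least 1.5-fold higher in all 5 KO-labelled monocyte and macrophage classes and in cDC2. In Ccl8 Cbr2 macrophages it had 52.7 CPM KO-labelled and 32.4 CPM WT-labelled.

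**Figure D4:**
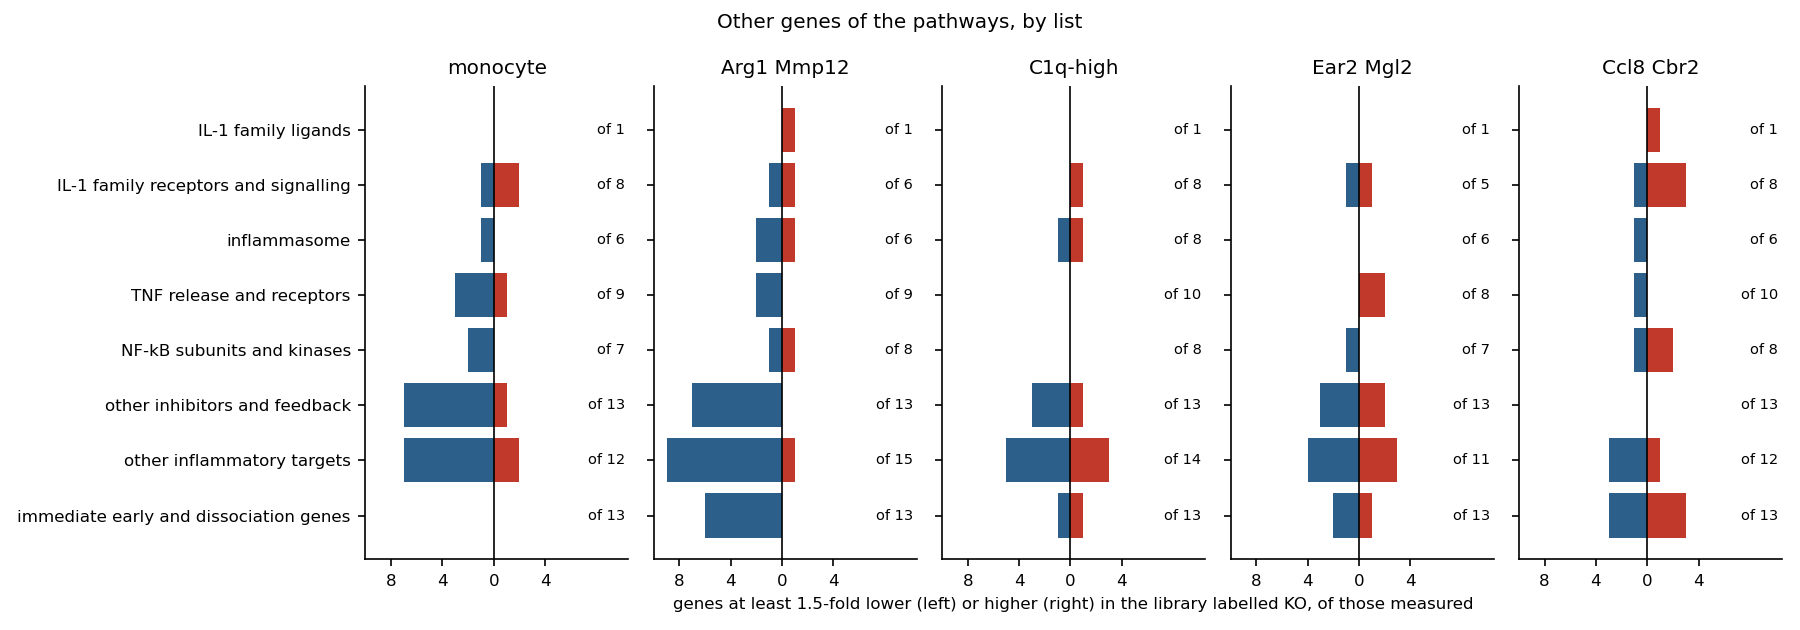
Number of other pathway genes at least 1.5-fold lower (left) or higher (right) in the library labelled KO, by list, in the monocyte class and the 4 macrophage classes, with the number measured at the right. The lists of other inhibitors and of inflammatory targets had 7 and 7 lower genes in monocytes and 7 and 9 in Arg1 Mmp12 macrophages. Of all measured genes, 10.9% were lower in monocytes and 12.5% in Arg1 Mmp12 macrophages.

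Genes that respond to tissue dissociation were set beside these results, since Nfkbia and Nfkbiz can be induced by handling too. Of 13 immediate early and dissociation genes, 0 passed 1.5-fold in either direction in monocytes (median log2 ratio 0.01), and in C1q-high macrophages 1 was higher (Nr4a1) and 1 lower (Egr1, 149 CPM KO-labelled and 356 CPM WT-labelled; median 0.03). In Arg1 Mmp12 macrophages 6 of the 13 were lower and 0 higher (median -0.56), including Egr1 (192 CPM KO-labelled, 696 CPM WT-labelled) and Jun (641 and 1149 CPM). Ear2 Mgl2 macrophages had 1 higher and 2 lower (Jun and Egr1), Ccl8 Cbr2 macrophages 3 and 3, migratory dendritic cells 0 and 5, cDC1 0 and 2, cDC2 0 and 0, and CD8 T cells 1 and 3. Of all measured genes, 14.7% were higher and 10.9% lower in monocytes, and 7.87% and 7.11% in C1q-high macrophages. The shares were 17.5% and 12.5% in Arg1 Mmp12, 14.3% and 11.6% in Ear2 Mgl2, and 9.8% and 13.9% in Ccl8 Cbr2 macrophages. They were 13.6% and 16.9% in migratory dendritic cells, 11.3% and 7.95% in cDC1, 7.2% and 9.72% in cDC2, and 27.1% and 7.38% in CD8 T cells. Jun had 411 CPM in KO-labelled and 913 CPM in WT-labelled migratory dendritic cells. The part of handling in the differences of the members was not tested in any class.

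The genes whose pattern over the 27 profiles was most like each member, among 5672 genes, differed by member. Gadd45b was among the 3 nearest to Nfkbia (r = 0.85) and to Nfkbiz (r = 0.87), and Tnfaip3 was nearest to Ppp1r15a (r = 0.86). Il1f9 was nearest to Retnlg (r = 0.98) and Prok2 (r = 0.97), the first of which was a neutrophil gate marker. Il1a was nearest to Csf3 (r = 0.90) and Tnf to Riok3 (r = 0.85), while Il1b was nearest to Plek (r = 0.84), Il1rn to Pygl (r = 0.91) and Il1r2 to Rin3 (r = 0.77).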

How the data were processed

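The deposited RNA matrices hold raw UMI counts per gene and barcode for 737280 barcodes, neither normalised nor filtered for cells, and the file headers name Cell Ranger 3.1.0. The submitters' processing notes give the build as mm10. The receptor libraries were not used here. The members, lists and gates were chosen with earlier results of these data known, and the gate thresholds after marker counts, not member counts, had been seen. Cells with markers of a second lineage were left out of the classes to limit doublets, and removal of the highest doublet scores (82 KO-labelled and 153 WT-labelled cells) was an alternative. Macrophages went in order to the Ccl8 Cbr2 class (3 UMIs), Ear2 Mgl2 (3 UMIs), C1q-high (15 per 10000 UMIs), Arg1 Mmp12 (5 UMIs) and Ly6c2 monocytes (5 UMIs). UMIs were summed per class and library and divided by the class total. CPM has exact Poisson intervals, the log2 ratio the exact conditional binomial interval, and shares after thinning to 1000 UMIs exact Clopper-Pearson intervals, at 95%. A gene was measured with at least 20 UMIs over both libraries; a difference of 1.5-fold is a rule of size, and a count of 0 was set to 3 counts for bounds. Other pathway genes could be named if they were among the 4 farthest past 1.5-fold per list and class, or if they reached 200 CPM in some class. Only some of the genes that met this rule are named, so those named are not a full list. Empty droplets had 10 to 100 UMIs. Sequencing depth per class total ranged with cell number, so small classes have wide intervals. Computations used Python 3.11.15, numpy 2.4.6, scipy 1.17.1, pandas 2.3.3 and scikit-learn 1.9.0, and were tested on simulated data.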

Additional observations from a re-analysis of the deposited data

Results flagged for a closer look

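Members whose log2 ratio (library labelled KO over that labelled WT) was past 1.5-fold in opposite directions in 2 classes, each with an interval off 0, are given here, and the difference between classes was not tested. Il1b had 2.45 in Ccl8 Cbr2 macrophages and -0.61 in migratory dendritic cells. Nfkbiz had 1.14 in regulatory T cells and -2.25 in Arg1 Mmp12 macrophages, and Tnfaip3 had 0.92 in CD4 T cells and -2.11 in Arg1 Mmp12 macrophages. Il1r2 had 4.96 in B cells, from 1 KO-labelled cell, and -1.85 in Ly6c2 monocytes, mostly from 1 WT-labelled cell.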

How the results depend on the processing

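Log2 ratios were recomputed under 13 other settings, and 922 stayed within the interval, 105 moved beyond it and 9 called ones reversed. Some ratios near 0 changed sign within the interval, as did Tnfaip3 in Ear2 Mgl2 macrophages (up to 0.45). No paired analysis was possible because each genotype has 1 library. In monocytes Il1b moved to 1.02 with a stricter gate, 0.88 with a looser gate and 0.65 without cells holding a melanocyte UMI. In C1q-high macrophages Il1b moved to 1.43 (looser gate), 1.41 (thinned to 1000 UMIs), 1.68 (free RNA subtracted), 1.40 (no melanocyte UMI) and 1.11 (no macrophages with 5 or more monocyte-marker UMIs). The last 2 settings were chosen after seeing the data. Nfkbia in C1q-high macrophages moved to -1.72 (looser gate), -1.47 (thinned) and -1.39 (cells weighted equally), and Tnf to -1.47 there (stricter gate) and to -2.21 in Arg1 Mmp12 macrophages (thinned). Member counts changed in monocytes to 2 higher (stricter gate, looser gate), 0 higher (at 2-fold) and 2 lower (thinned), in Arg1 Mmp12 macrophages to 1 higher (looser gate), and in C1q-high macrophages to 3 lower (thinned). The reversed values are mostly of sparse genes. Il1r2 reversed in monocytes (0.0038 without the highest doublet scores, 0.70 thinned), Ear2 Mgl2 macrophages (0.31 thinned), cDC1 (0.41 looser gate) and CD8 T cells (1.72 without the 5% of cells with most UMIs). In B cells Il1b reversed to -1.47 (thinned), -0.41 (cells weighted equally) and -1.11 (without the 5% of cells with most UMIs), and Nfkbiz to 0.083 (looser gate). The cause was not tested. Depth limits the 9 KO-labelled neutrophils, in which the log2 ratio of Il1rn had an interval from -1.51 to 0.11 and that of Nfkbiz one from -1.39 to 0.18.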

Other observations

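Small classes held values that entered no comparison. Plasmacytoid dendritic cells, known for type I interferon, had 417 CPM of Tnf (interval 308 to 553) in 22 KO-labelled cells and 95.3 CPM (69.5 to 127) in 90 WT-labelled cells, with 33.3% of the KO-labelled UMIs in 1 cell. Their Nfkbia ran the other way, at 313 and 622 CPM. Gamma-delta T cells (24 KO-labelled, 33 WT-labelled) had 1004 and 746 CPM of Tnfaip3, among the highest levels of that gene in each library, and 1475 and 2536 CPM of Nfkbia. NK cells numbered 5 KO-labelled and 8 WT-labelled and held no Il1b UMI. Empty droplets also differed: Nfkbia had 458 CPM in KO-labelled and 1308 CPM in WT-labelled ones, and Il1b 915 and 1463 CPM. With free RNA subtracted at the estimate from haemoglobin and melanocyte transcripts together (7.32% KO-labelled, 1.98% WT-labelled), the log2 ratio of Il1b in C1q-high macrophages was 1.68; the 2 kinds of transcript gave very different shares in the KO-labelled library, so this value depends on the choice.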
